A study of Caenorhabditis elegans with 6 samples.

Results

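UNC-55 is the C. elegans nuclear receptor of the COUP-TF family. The UNC-55 binding regions on the X chromosome were all entries of the combined ChIP-seq peak list placed on X, and they numbered 1662 of 8836 regions. The same rule gave 1269 of 6805 regions in replicate 1, 902 of 4909 in replicate 2 and 516 of 2803 in replicate 3. X thus held 18.8% of the combined list and 18.6%, 18.4% and 18.4% of the lists of replicates 1, 2 and 3.

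The study held 3 samples of chromatin precipitated with anti-GFP antibodies and 3 input samples, all from whole L2 hermaphrodites of strain NC1639. That strain carries wdIs49, an integrated transgene on chromosome III that was not outcrossed. Its parts, by the labels, are a ttr-39 promoter driving UNC-55a::GFP and a dpy-20(+) copy. Per the labels, the fusion is expressed in GABA neurons of the ventral nerve cord and, ectopically, in some other cells, so the chromatin of whole worms mixes expressing and other cells. The series title names a different factor and stage, and the sample labels, which all name UNC-55 at L2, were followed. The inputs are not analysed here, and no group without the transgene was compared. Nothing in the labels says that the replicates were separate cultures, so p-values over them measure only the spread between these samples. Positions are on WormBase WS220, and no genome or gene annotation of that build was used, so regions are given by position and carry no gene name or sequence.

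In the worm, UNC-55 is known for its role in the ventral D motor neurons, where it prevents the synaptic remodelling that the dorsal D motor neurons undergo. COUP-TF proteins are orphan receptors that bind DNA directly and often repress transcription. The X chromosome of hermaphrodites is the target of the dosage compensation complex, a condensin-related assembly that lowers transcription from both X chromosomes. X-linked genes are also known to be largely silent in the germline and to be expressed mainly in somatic tissues.

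UNC-55 regions covered 922 kb of X in the combined list, which is 5.23% of the chromosome up to the last region, against 4.69% of the autosomes. In replicates 1, 2 and 3 they covered 3.81%, 2.80% and 1.54% of X, against 3.40%, 2.46% and 1.32% of the autosomes. The covered share on X was thus above that on the autosomes in every list. Regions per Mb of X numbered 72.0, 51.2 and 29.3 in replicates 1, 2 and 3, against 67.1, 48.6 and 27.7 per Mb of autosome. X exceeded the autosomes by 2.97 ± 1.69 regions per Mb (SD, n = 3; exact two-sided sign-flip permutation p = 0.25, the smallest p that 3 replicates allow). Of the 5 comparisons of X with the autosomes made here, 4 have this p (Benjamini-Hochberg adjusted p = 0.3125 in the exact permutation test). The density excess depended on a sparse autosome. With chromosome IV left out of the autosomes the mean difference turned to -1.49 regions per Mb (exact sign-flip permutation p = 0.5). Among the 6 chromosomes X held place 3 or 4 in density in every list, with chromosome III the densest.

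Along X, every 1 Mb bin held UNC-55 regions. The 17 full bins held between 67 and 131 combined regions, with a median of 97. Replicate 1 had 49 to 101 per bin, replicate 2 had 32 to 68 and replicate 3 had 16 to 43. The fullest bins were those from 2 to 3 Mb and from 4 to 5 Mb, with 131 combined regions each, and the emptiest full bins were from 10 to 11 Mb with 67 and from 1 to 2 Mb with 68. The last bin, which was only partly spanned, held 52.

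**Figure D1:**
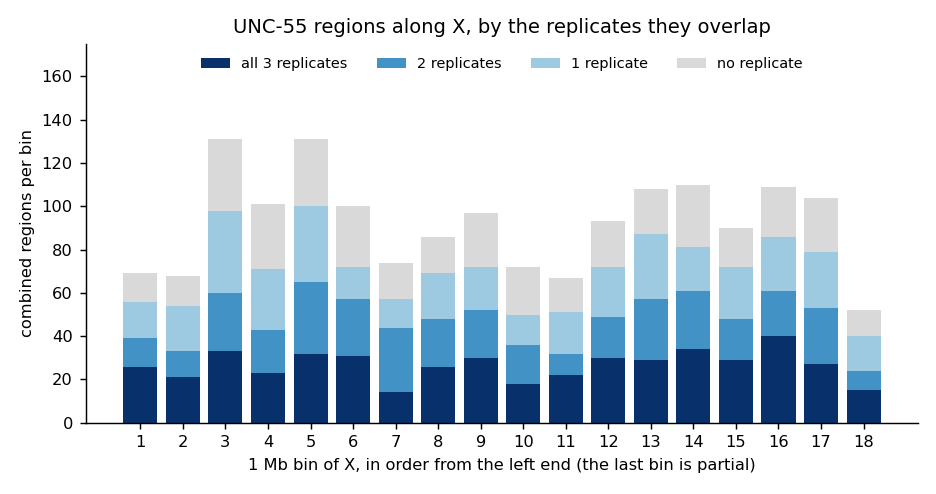
Combined UNC-55 regions in each 1 Mb bin of X, in order from the left end, stacked by the number of replicates whose regions they overlap by at least 1 bp. The fullest bins reach 131 regions, and the share found in all 3 replicates is lowest in the seventh bin, with 14 of 74.

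The stretch of X from 2 to 5 Mb, which includes the 2 fullest bins, held fewer top-ranked regions than the stretch from 14 to 17 Mb. Its middle bin, from 3 to 4 Mb, was not crowded. That bin held 101 combined regions, and 68, 45 and 25 in replicates 1, 2 and 3, where the medians of full bins were 97, 72, 54 and 30. From 2 to 5 Mb lay 363 combined regions, or 21.8% of those on X, but only 2 of them ranked among the best 100 of the combined list and 22 (6.06%) among the best 1000. Ranks here follow the authors' score for each region, a p-value or q-value from the peak caller, and order regions within a list only. From 14 to 17 Mb lay 303 combined regions, of which 11 ranked among the best 100 and 40 (13.2%) among the best 1000. Over all of X outside 2 to 5 Mb, 142 of 1299 (10.9%) ranked among the best 1000. The shares did not follow a left to right order. The bins from 0 to 1 and 1 to 2 Mb had 11 of 69 and 11 of 68 there, and that from 12 to 13 Mb had 5 of 108. The 2 stretches were chosen after their values were seen, so the contrast is a description. The stretch from 2 to 5 Mb held 20.7%, 19.5% and 18.0% of the X regions of replicates 1, 2 and 3, and the stretch from 14 to 17 Mb held 18.7%, 18.7% and 20.2%, so that the left stretch held more in replicates 1 and 2 and fewer in replicate 3.

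The 10 best-scored combined regions of X were spread over 8 bins, and every one overlapped a region in all 3 replicates. So did 97.3% of the autosomal regions in the best-scored 10% of the combined list. The first 5 of the 10 X regions carried a score listed as 0, the limit of what the caller wrote. Their combined ranks of 3 to 7 only follow the authors' numbering of tied regions. Among them, the region from 2996211 to 2997936 (1726 bp) ranked 3, 6 and 9 in the replicate lists. The region from 14525065 to 14527115 (2051 bp) held the best ranks among these 10 in each replicate, at 2, 3 and 8. Those from 4208438 to 4210125, 11093538 to 11095851 and 16927925 to 16932011 were the others of these 5. The next 4 lay at 8035594 to 8037036, 6295872 to 6297311, 9465020 to 9466707 and 16055966 to 16056934, with combined ranks of 9, 10, 12 and 13. In the replicates these 9 regions kept ranks between 2 and 22. The tenth, from 11603134 to 11607743, was the widest region on X at 4610 bp and had combined rank 16, with ranks of 28, 50 and 64 in replicates 1, 2 and 3. Replicate 1 listed it as 1 region, replicate 2 as 3 and replicate 3 as 2.

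**Figure D2:**
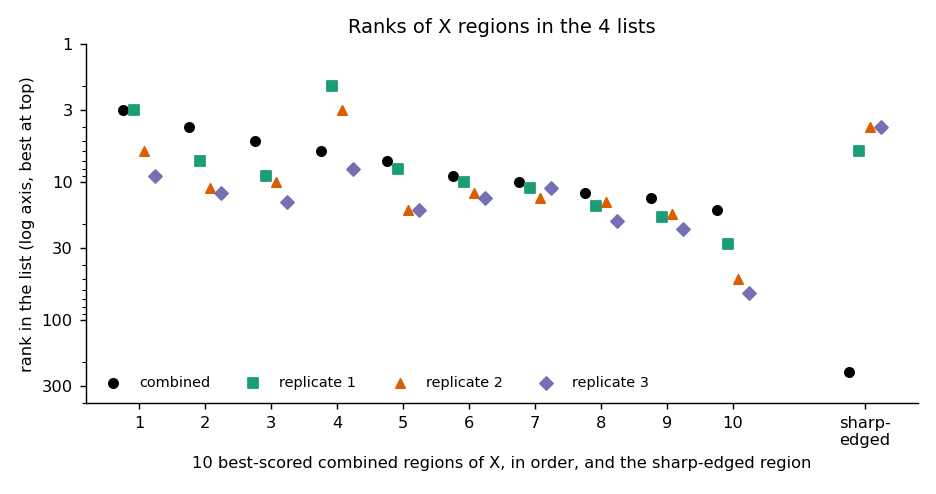
Rank of the 10 best-scored combined regions of X in each of the 4 lists (log axis, best at the top), and on the right the rank of the sharp-edged region from 7776511 to 7777517. The first 9 regions lie between rank 2 and rank 22 in every list, while the sharp-edged region lies at ranks 6, 4 and 4 in the replicates and at 239 in the combined list.

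Strong regions were not confined to a part of X. In each bin the best-scored region overlapped all 3 replicates, and in 16 of the 18 bins it was among the best 100 of the combined list. The exceptions were the bin from 3 to 4 Mb, whose best region (3127035 to 3128707) had combined rank 229, and the bin from 7 to 8 Mb, whose best region (7284438 to 7285229) had combined rank 108. In the other bins not yet named the best regions were 806288 to 807361 with combined rank 46, 1344509 to 1346009 with 17, 5728659 to 5730164 with 42, 10567963 to 10569254 with 33, 12362686 to 12363610 with 81, 13699804 to 13701246 with 21, 15606527 to 15607970 with 45 and 17478836 to 17480561 with 34. X carried 27 of the best 100 combined regions, while it held 18.8% of that list. In replicates 1, 2 and 3 it carried 30, 29 and 30 of the best 100, beside 18.6%, 18.4% and 18.4% of all regions. The centres of the 27 combined regions lay a median of 518 kb apart, from 35.3 kb to 1740 kb, and their widths ran from 925 to 4610 bp. All 27 were found in all 3 replicates, at ranks no worse than 155, 549 and 358 in replicates 1, 2 and 3. Such support was general to top-ranked regions. In the best-scored 10% of the combined list, 100% of X regions and 97.3% of autosomal regions were found in all 3 replicates. Without chromosome IV the autosomal share was 99.7%.

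Below this top, X was spread unevenly over the ranks, and the lists differed in how. Each list was divided into 10 slices of equal size by score. In the combined list X held 16.3% of the best slice and 14.8% of the next, and between 19.1% and 22.5% of each of the 5 lowest slices. In replicate 1 the pattern was alike, with 17.2% in the best slice and between 18.9% and 21.8% in the 5 lowest. Replicate 3 had its highest X shares at the top, with 21.8% and 21.1% in its best 2 slices and between 15.4% and 20.0% in the other 8. Replicate 2 lay between them, with 18.8% and 18.7% in its best 2 slices and its lowest shares, 13.2% and 14.5%, in the next pair of slices.

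**Figure D3:**
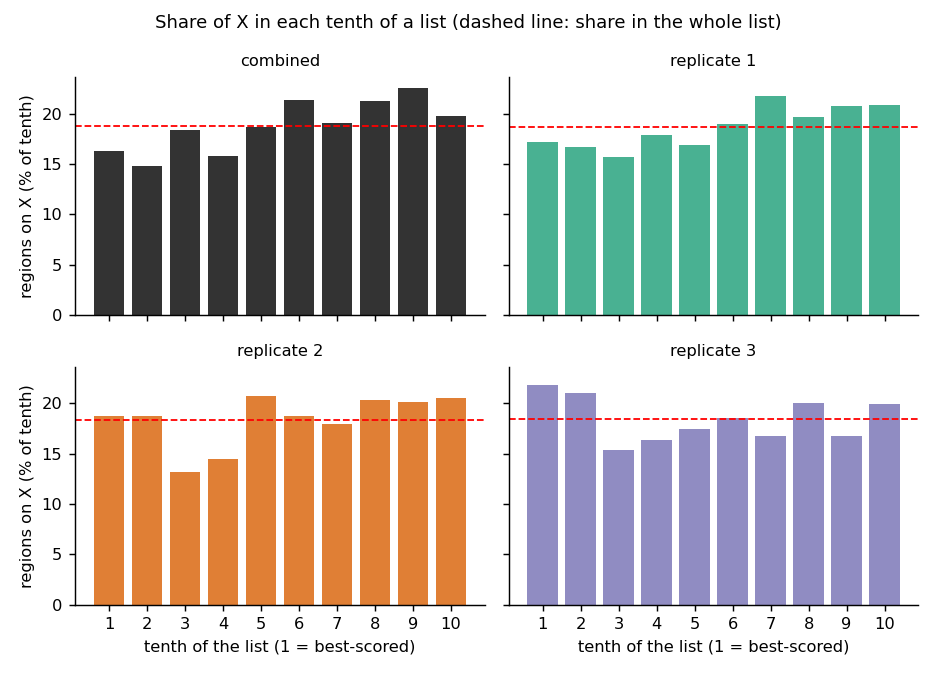
Share of regions on X in each of 10 equal slices of each list, ordered by score from best (1) to worst (10), with the share in the whole list as a dashed line. In the combined list and in replicate 1 the first 5 slices lie below the line, whereas in replicate 3 the first 2 lie above it.

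The median X region stood at 54.8%, 53.1% and 49.9% of the ranking in replicates 1, 2 and 3, where a larger value is a worse rank, against 48.9%, 49.2% and 50.0% for the autosomes. The difference of 3.23 ± 3.03 percentage points (SD, n = 3; exact two-sided sign-flip permutation p = 0.5) was not of one sign, with -0.071 points in replicate 3. It shrank to 0.22 points when each list was limited to the same number of best-scored regions, and turned to -1.48 points in the better-scored 50% of each list. With chromosome IV left out of the autosomes it was 3.87 points and of one sign, from 0.535 to 6.30 points (exact sign-flip permutation p = 0.25). In the combined list the median X region stood at 55.02%, against 48.7% for the autosomes.

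UNC-55 regions on X had a larger median width than those on the autosomes in every list. The median width on X was 434, 437.5 and 447 bp in replicates 1, 2 and 3, against 411, 412 and 395 bp on the autosomes. That is a difference of 33.5 ± 16.1 bp (SD, n = 3; exact two-sided sign-flip permutation p = 0.25, the smallest possible), with all 3 replicates in the same direction. It was 78.8 bp in the better-scored 50% of each list. In the combined list the medians were 440.5 bp on X and 423 bp on the autosomes. X was not beyond every autosome: chromosome V had the widest combined regions (445 bp) and chromosome IV the widest of replicate 1 (436 bp), while X was the widest in replicates 2 and 3.

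Width and score went together in these lists, so widths were also set side by side within the 10 slices. In the combined list X regions had the larger median width in 10 of 10 slices, by between 12 and 192 bp. The same held in 9, 10 and 10 of 10 slices in replicates 1, 2 and 3, and the exception was the worst-scored slice of replicate 1, at -9.5 bp. In the best-scored slice the median width was 885, 848 and 774 bp on X in replicates 1, 2 and 3, against 749, 687 and 634 bp on the autosomes. Apart from that exception, median widths on X were thus above those of autosomal regions of the same slice, although X regions as a group were not better scored. Ranks within a slice were not matched. In the combined list X held 16.3% of the best slice of 883 regions, but 27 of the best 100. With chromosome IV left out of the autosomes, X was wider in 10 of 10 slices of all 4 lists. The slices were chosen after the data were examined, the lists share regions, and no test was made over slices.

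**Figure D4:**
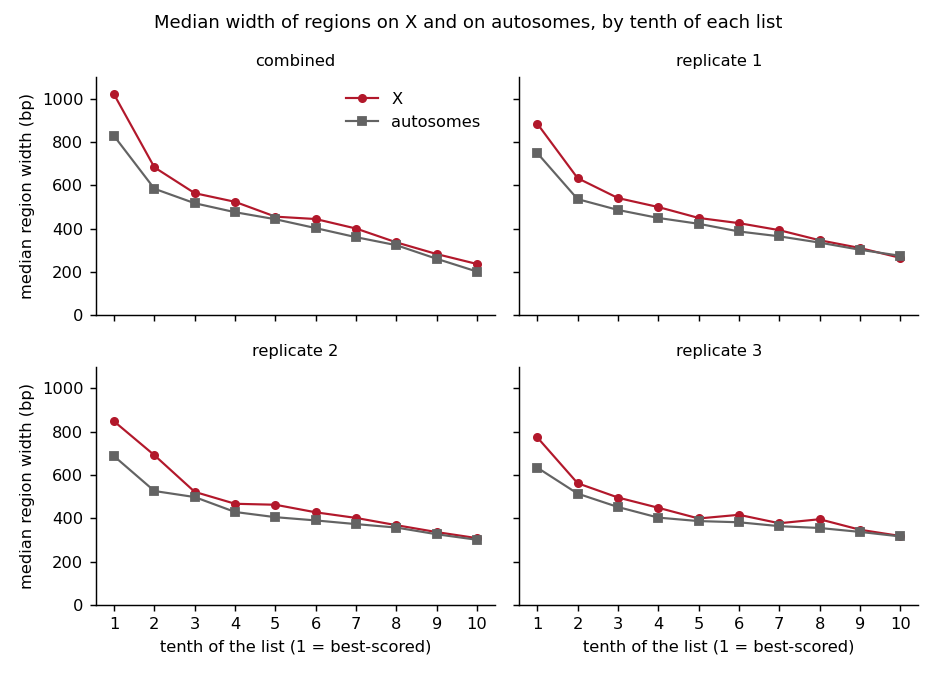
Median width in bp of regions on X (circles) and on the autosomes (squares) in each of 10 equal slices of each list, from best-scored (1) to worst-scored (10). The X line lies above the autosome line at every slice but the last of replicate 1, and the best combined slice has 1020 bp on X and 828 bp on the autosomes.

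Across X itself, width and rank went together, with Spearman's rho of -0.70 in the combined list and -0.65, -0.63 and -0.56 in replicates 1, 2 and 3 (over 1662, 1269, 902 and 516 regions, which share library and caller). The narrowest combined region on X had 2 bp and the widest 4610 bp, and 50% of them measured from 316 to 662 bp. There were 172 regions of at least 1000 bp and 23 of at least 2000 bp, and the latter lay in 12 bins. Of these 23 broad regions 21 overlapped all 3 replicates, and 13, 14 and 9 were listed as 2 or more regions in replicates 1, 2 and 3. Over all combined regions, of any width, 29.5% overlapped all 3 replicates, but the broad regions had a median combined rank of 233. The shares among autosomal regions of this width are not given here, so these counts do not set X apart. The 5 widest were 11603134 to 11607743, 11469610 to 11474034, 17463465 to 17467682, 16927925 to 16932011 and 10765759 to 10769147, between 3389 and 4610 bp. A broad region was not always a strong one. The region from 6742887 to 6746042 spanned 3156 bp but had combined rank 5895, ranks of 6477 and 4158 in replicates 1 and 2 and no counterpart in replicate 3, and was picked out after its values were seen. At the other extreme 25 combined regions of X were under 50 bp wide, of which 24 overlapped no replicate region and 1 overlapped a region of 1 replicate. The autosomes were alike: 143 of their regions under 50 bp overlapped no replicate, 11 overlapped 1 replicate and 1 overlapped 2.

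The bin from 7 to 8 Mb stood apart in width. Its median width was 277, 287 and 341 bp in replicates 1, 2 and 3, against 442, 445 and 459.5 bp in the rest of X. In the combined list it was 288.5 bp, against 449 bp in the rest of X. No other bin of X was as narrow in any list: the other medians ran from 392 to 586.5 bp in the combined list and from 355 to 609 bp in replicate 3, whose numbers per bin are small. In the combined list the narrow widths began and ended near the Mb boundaries. The 500 kb before 7 Mb had a combined median of 514.5 bp, the 2 inner stretches of 500 kb had 319 and 262 bp, and the 500 kb after 8 Mb had 522.5 bp. Replicate 3, with 19 regions after 8 Mb, showed 499, 351, 313 and 370 bp over the same 4 stretches. Scores were not poor there, since the median combined rank of 4225 in this bin was the best of any full bin of X and 26 of its 86 regions were found in all 3 replicates.

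**Figure D5:**
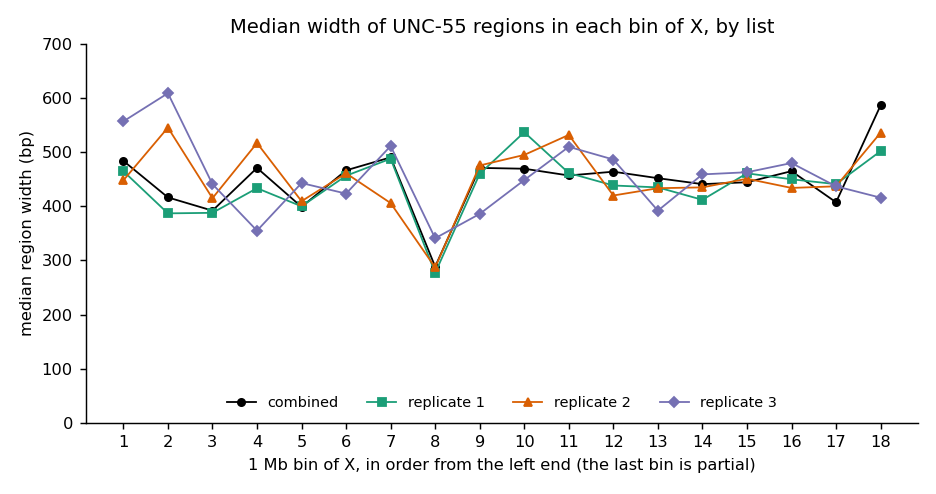
Median width in bp of UNC-55 regions in each 1 Mb bin of X, in order from the left end, in the combined list and in each replicate. The eighth bin (7 to 8 Mb) is the lowest point of all 4 lines, at 288.5 bp in the combined list and 277, 287 and 341 bp in replicates 1, 2 and 3.

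That bin also held the region from 7776511 to 7777517, which was chosen after its values were seen. Its start differed by at most 1 bp among the 3 replicates, as did its end, whereas the larger of the start and end differences had a median of 144 bp over the 480 regions of replicate 1 on X that matched 1 region in each other replicate. It ranked 6, 4 and 4 in replicates 1, 2 and 3, while its combined rank was 239. The other 21 X regions among the best 50 of replicate 3 had combined ranks of 81 or better. Regions that ranked 50 or better in replicate 3 and whose edges each differed by at most 10 bp among the 3 replicates numbered 8 in the genome, in 5 bins. Besides X from 7 to 8 Mb these bins were I from 7 to 8 Mb, II from 11 to 12 Mb and IV from 10 to 11 and from 11 to 12 Mb. Of the 7 such regions on autosomes, 5 had combined ranks worse than 200 and 1 had combined rank 2. The other was not in the combined list. The same 5 bins were the 5 narrowest of 102 bins in replicates 1 and 2, counting bins with at least 10 regions. In replicate 3 they took places 1, 2, 3, 5 and 8 of 89, the X bin level with the bin in place 7, and in the combined list, which has no region from 10 to 11 Mb of chromosome IV, the remaining 4 were the narrowest of 101. Narrow bins and such sharp-edged regions thus occurred together, and the part of the one in the other was not tested. The lists do not tell whether the narrow widths reflect the way the caller treated these 1 Mb stretches, which was not tested either. Of the genes the labels name in the transgene, unc-55 is on chromosome I, ttr-39 and dpy-20 are on IV, and none is on X. These chromosome names come from the RefSeq gene table of assembly WBcel235, which was used for nothing else. Whether the transgene bears on any of the sharp-edged regions was not tested. Without the 5 bins, a choice made after seeing the data, the median width on X exceeded that on the autosomes by 36.2 bp, averaged over the 3 replicates (exact sign-flip permutation p = 0.25).

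A weaker region of X, from 293242 to 293624 in replicate 1, had edges that differed by at most 8 bp among the 3 replicates and was likewise chosen after its values were seen. Its ranks were 3756, 2597 and 2264 in replicates 1, 2 and 3 and 7523 in the combined list. It bounds the longest gap of X in the combined list, from 191273 to 293240 (102 kb), in which no replicate had a region. The longest gaps of replicates 1, 2 and 3 measured 210 kb, 218 kb and 242 kb. The next longest combined gaps ran from 15742372 to 15840891, 6398174 to 6492866, 12728910 to 12822133 and 5595400 to 5686001, between 90.6 and 98.5 kb. Of these 4, 3 held 1 region of 1 replicate that reached into the gap, and that from 12728910 to 12822133 held none.

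Neighbouring regions on X were a median of 4.60 kb apart by the combined list (quartiles 1.48 and 12.9 kb), and no gap was under 205 bp. The median gap was 6.56, 10.0 and 19.4 kb in replicates 1, 2 and 3, against 6.39, 10.0 and 18.4 kb on the autosomes. Gaps of at most 2 kb made up 24.0%, 17.9% and 11.1% of those on X in replicates 1, 2 and 3, against 25.9%, 19.2% and 11.9% on the autosomes. The difference was -1.37 ± 0.58 percentage points (SD, n = 3; exact two-sided sign-flip permutation p = 0.25, the smallest possible), lower on X in all 3 replicates. X was not below every autosome. Chromosome I had 22.5%, 17.3% and 10.8% in replicates 1, 2 and 3, and chromosome IV had 19.9%, 10.9% and 4.48%. With a limit of 1 kb the mean difference was -0.84 points and not of one sign, from -1.59 to 0.085 points over the replicates.

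When combined regions with gaps of at most 2 kb were joined, 824 of the 1662 X regions stood alone, 430 formed pairs and 408 lay in 103 runs of 3 or more. Runs occurred in all 18 bins, from 1 in the first and in the bin from 10 to 11 Mb to 10 in each of the bins from 3 to 4 and 4 to 5 Mb. The longest run held 11 regions from 2591874 to 2607116, a span of 15.2 kb of which 50.8% was covered. In that span replicates 1, 2 and 3 had 7, 6 and 3 regions, and its best combined rank was 600. The next held 8 regions from 12171720 to 12184733, with 8, 5 and 2 regions in replicates 1, 2 and 3. Runs of 7 lay at 8012454 to 8022237 and 16480107 to 16489431, and the longest of the runs of 6 at 11462818 to 11477410, which was 71.1% covered and held 7, 5 and 5 replicate regions.

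Regions in runs were much like those that stood alone in rank and replicate support, but they were wider. The median combined width was 419 bp among lone regions, 438 bp in pairs and 507 bp in runs of 3 or more. The median combined rank was 5060 in runs of 3 or more and 4687 among lone regions, 40 of 408 and 80 of 824 ranked among the best 1000, and 110 of 408 and 253 of 824 were found in all 3 replicates. Of the 27 X regions in the best 100, 17 stood alone, 6 were in pairs and 4 in runs. In 2 of the 103 runs every region was found in all 3 replicates and in 32 no region was, beside the 110 of their 408 regions that were. Only 54, 26 and 9 runs of 3 or more were found on X in the lists of replicates 1, 2 and 3, which hold fewer regions.

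Replicate support on X was close to that of the whole list. Of the 1662 X regions, 480 overlapped all 3 replicates by at least 1 bp (28.9%, exact 95% interval 26.7 to 31.1%), against 29.5% of all combined regions. Another 382 overlapped 2 replicates, 405 overlapped 1 and 395 overlapped none (23.8%, exact 95% interval 21.7 to 25.9%), against 24.4% of all combined regions without a replicate. The intervals cover counting error only and treat regions as independent. The share in all 3 replicates was 28.2%, 34.3%, 36.1%, 14.8% and 31.8% on chromosomes I, II, III, IV and V, so the value for the whole list is lowered by chromosome IV. Regions with more support were wider and better ranked. Median widths on X were 667, 494, 376 and 279 bp for regions found in 3, 2, 1 and 0 replicates, and median combined ranks were 1517, 4012, 6050 and 7769. A neighbour within 2 kb was about as frequent at every level of support, at 47.3%, 49.5%, 52.6% and 52.9% for 3, 2, 1 and 0 replicates.

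The replicates were nested on X, much as on the autosomes. Of the combined X regions 360 (21.7%) were found in replicates 1 and 2 but not 3, against 22.1% on the autosomes. Another 22 (1.32%) were in replicates 1 and 3 but not 2, against 0.71%. In replicates 2 and 3 but not 1 there were 0, against 0.08%. Regions found in only 1 replicate came from replicate 1 in 363 cases (21.8%), from replicate 2 in 40 (2.41%) and from replicate 3 in 2 (0.12%). On the autosomes these shares were 21.1%, 1.69% and 0.14%. Replicate 3 therefore set the number found in all 3 on X, which was 840 for replicates 1 and 2 alone. Every X region of replicates 2 and 3 overlapped a combined region. In replicate 1, 19 of 1269 did not, with a median width of 164 bp and ranks from 4868 to 6785, and none of the 19 was in another replicate.

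By replicate, 38.5% of the X regions of replicate 1 overlapped both other replicates, against 39.4% on the autosomes and 39.2% of all its regions. The share was 54.3% on X in replicate 2, against 54.8% on the autosomes and 54.7% of all its regions. In replicate 3 it was 95.3% on X, against 96.8% on the autosomes and 96.5% of all its regions. The mean difference of -0.91 ± 0.47 percentage points (SD, n = 3; exact two-sided sign-flip permutation p = 0.25, the smallest possible) depended on the settings. With chromosome IV left out of the autosomes it was -2.93 points, lower on X in all 3 replicates (exact sign-flip permutation p = 0.25), and it turned to 1.08 points when a reciprocal overlap of at least 50% was asked for. Regions of replicate 3 on X were found in replicate 1 in 99.6% of cases and in replicate 2 in 95.3%, against 99.3% and 97.1% on the autosomes. Of the X regions of replicate 1, 67.8% and 40.3% were found in replicates 2 and 3, against 69.2% and 40.4% on the autosomes.

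The 5 best-scored X regions without replicate support lay at 7047507 to 7047705, 13564302 to 13565002, 17520618 to 17521633, 14843618 to 14844017 and 11367082 to 11367999. Their combined ranks ran from 5261 to 5807. Support varied along X as well. Among full bins the share found in all 3 replicates ran from 18.9% (14 of 74) from 6 to 7 Mb to 37.7% (26 of 69) in the first bin, with 36.7% (40 of 109) from 15 to 16 Mb.

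Ranks of matched X regions were alike between replicates: Spearman's rho was 0.83 over 863 regions of replicates 1 and 2, 0.80 over 514 of replicates 1 and 3 and 0.77 over 492 of replicates 2 and 3. On the autosomes the values were 0.82, 0.72 and 0.74. These are descriptions across regions, which share their libraries, and carry no test.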

How the data were processed

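UNC-55::GFP ChIP-seq was analysed from 4 deposited peak lists, 1 for each of the 3 ChIP replicates and 1 combined. Per the file headers, the build is WormBase WS220, and the deposited source column names PeakSeq as the peak caller. Aligner, thresholds, control and pooling of replicates were not given in the sources used here. Deposited scores are each region's p-value or q-value from the caller (at most 0.001), used only to rank regions, with ties ordered by peak number. Without read counts, depth is unknown.

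Regions were assigned to 1 Mb bins by their centre and called shared at an overlap of at least 1 bp. Chromosome lengths were taken up to the last region in any list, 17.6 Mb for X. X was set against the 5 autosomes within each replicate list for regions per Mb, width, rank, close gaps and replicate support, and the 3 differences were tested by an exact two-sided sign-flip permutation test, which cannot go below 0.25. P-values were adjusted over these 5 comparisons (Benjamini-Hochberg). Shares have exact (Clopper-Pearson) 95% intervals. Regions named are the 10 best-scored, the best of each bin, the 5 widest, the 5 longest runs and gaps and the 5 best-scored without replicate support, and others are marked as chosen after their values were seen. The members, rules and comparisons were chosen with earlier results of these data known. Overlap, run and test code was tested on simulated data and against bedtools 2.31.1. Alternatives were other overlap and distance rules, better-scored subsets, leaving out a replicate or chromosome IV and, added later, leaving out 5 bins. Calculations used SciPy 1.17.1 and numpy 2.4.6 with pandas 2.3.3 in Python 3.11.15, and plots used matplotlib 3.10.9.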

Additional observations from a re-analysis of the deposited data

How the results depend on the processing

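No paired analysis was possible because no peak list of the inputs, which share the replicate numbers with the ChIP samples, was analysed here, while X and autosomes were compared within each replicate list. Of 52 alternatives, 37 kept the direction or stayed within 1.5 times the count, and no test could pass with 3 replicates. The wider regions on X kept their direction in all alternatives, at 24.3 to 38.8 bp without 1 replicate, 78.8 bp in the better-scored 50% of each list and 71.3 bp with the same number of best-scored regions. The difference in gaps of at most 2 kb did so too, at -1.66 to -1.08 points without 1 replicate, -2.49 in the better-scored 50% and -2.44 without chromosome IV. The difference in regions per Mb (2.04 to 3.69 without 1 replicate) turned to -0.54 in the better-scored 50% of each list, -0.241 with the same number of best-scored regions and -1.49 without chromosome IV. The difference in median rank (1.91 to 4.89 points without 1 replicate) turned to -1.48 points in the better-scored 50% and was 0.22 with the same number of regions. It was 3.87 points without chromosome IV and 3.32 points without the 5 bins. The difference in support by both other replicates turned to 1.08 points under reciprocal overlap and ran from -1.22 to 0.108 points without 1 replicate, the reversal being without replicate 2, but widened to -2.93 without chromosome IV and -3.28 with the same number of regions. The cause of these changes was not tested. X regions found in all remaining replicates numbered 480 to 840 without 1 replicate, the highest being without replicate 3, and 230 in the better-scored 50%. The 103 runs became 55 at 1 kb, 184 at 5 kb, 21 in the better-scored 50%, 5 among regions found in all 3 replicates and 54, 26 and 9 in replicates 1, 2 and 3, by construction of the shorter lists and other distances.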
